A study of Homo sapiens with 56 samples.

Results

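Glycolysis and hypoxia-response genes were described across 28 human ovarian cancer cell lines, each read on 2 Affymetrix Human Gene ST arrays. The members were 36 genes named in a list: glucose and lactate carriers, the enzymes of glycolysis, regulators of its flux, carbonic anhydrases, genes switched on by low oxygen, and the hypoxia-inducible factor subunits HIF1A and EPAS1. Of these, 32 were measured among the 18377 genes with a probe set annotated to 1 gene, and CA9, SLC16A1, SLC16A3 and PGAM1 were not analysed here. The list uses no threshold on measured values. All 32 were read by 1 probe set each, and values are log2 intensities. A member's level is set against the same gene in other lines, apart from 1 median over members given beside that of all genes.

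All samples were established lines in culture, and no label gives an oxygen level, a drug or a genetic change. The base medium was DMEM/F12 for 7 lines (FUOV1, JHOS2, JHOS3, JHOS4, OV17R, OV56 and OV7), DMEM for 10 (CAOV3, CH1, DOV13, OAW28, OAW42, OVCA420, OVCA432, OVCA433, SKOV3 and TYKNU) and RPMI for 9 (A2780, COLO720E, EFO21, HEY, HEYC2, OVCAR2, OVCAR3, OVCAR5 and PEO1). UWB1.289 grew in RPMI with MEGM and 3% fetal bovine serum, and TOV112D in MCDB105 with M199. Insulin was added for 8 lines, at 10 µg/ml for OV17R, OV56, OV7, OVCAR2, OVCAR3 and OVCAR5 and at 0.7 µg/ml for OAW28 and OAW42. OV17R (0.4 µg/ml), OV56 and OV7 (0.5 µg/ml each) also received hydrocortisone, with 5% serum. EFO21 and OVCAR3 had 20% serum and the other lines 10%. Each line had 1 medium, so the origin of a line and its medium cannot be told apart, and nothing in the labels tells if duplicates were grown apart. The p-values between lines therefore rest on array-to-array spread that may be purely technical.

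Glycolysis splits glucose into pyruvate in the cytosol, and lactate dehydrogenase turns pyruvate into lactate. When oxygen is low, HIF1A and EPAS1 proteins escape prolyl hydroxylation and VHL-mediated breakdown, pair with ARNT and bind a short motif, the hypoxia response element, near target genes. Many glycolytic enzymes, the glucose transporter SLC2A1, the pyruvate dehydrogenase kinase PDK1, the angiogenic factor VEGFA, the vasodilator peptide ADM and the mitophagy receptor BNIP3 are known targets. The factors are governed largely at the protein level, which arrays do not read.

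To show where that motif lies, the 250 bases before each transcript start in RefSeq (GRCh38.p14) were searched for its core, ACGTG or GCGTG, on both strands, with a CACGTG counted once on each strand. Windows were given for 29 of the 32 members, and SLC2A3, VEGFA and NDRG1 were not among them. The core was found in at least 1 window of 25 of those 29 members (86.2%), against 47.4% of all 27305 genes with a window, measured or not. By window it was found in 31 of 52 member windows (59.6%), against 43.2% of all 35116 windows. EGLN3, LDHB, PKM and SLC2A1 had none in their only window. More windows give a gene more chances of a match, and HK1 and PFKM had 7 each. The list also holds known targets of these factors, and enrichment was not tested. The sequences shown belong to 3 pairs of members that varied together over the lines, HK2 with PDK1, LDHA with BNIP3, and PGK1 with P4HA1, written 5′ to 3′ toward the start site with the matches in capitals. Other pairs that varied together are not shown, among them PFKP with PFKFB3, and EPAS1 with PKM, which held no match. Whether matches go with such co-variation was not tested. For HK2 and LDHA the first of 2 windows is shown, and for PDK1 the last 30 bases of the second of 2, since its first held no match.
HK2, chr2:74833877-74834126, plus strand: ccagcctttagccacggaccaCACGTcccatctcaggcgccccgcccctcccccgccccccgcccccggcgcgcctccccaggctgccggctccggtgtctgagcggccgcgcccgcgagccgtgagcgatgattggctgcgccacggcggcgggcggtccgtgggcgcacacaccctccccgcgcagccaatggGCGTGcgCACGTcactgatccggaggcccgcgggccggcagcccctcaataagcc
PDK1, chr2:172556060-172556089, plus strand: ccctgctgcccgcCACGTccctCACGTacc
LDHA, chr11:18394313-18394562, plus strand: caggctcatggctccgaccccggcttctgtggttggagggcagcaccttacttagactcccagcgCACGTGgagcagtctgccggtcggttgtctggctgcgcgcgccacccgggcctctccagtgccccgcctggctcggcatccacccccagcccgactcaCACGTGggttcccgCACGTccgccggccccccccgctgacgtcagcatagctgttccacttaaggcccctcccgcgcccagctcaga
BNIP3, chr10:131981924-131982173, minus strand: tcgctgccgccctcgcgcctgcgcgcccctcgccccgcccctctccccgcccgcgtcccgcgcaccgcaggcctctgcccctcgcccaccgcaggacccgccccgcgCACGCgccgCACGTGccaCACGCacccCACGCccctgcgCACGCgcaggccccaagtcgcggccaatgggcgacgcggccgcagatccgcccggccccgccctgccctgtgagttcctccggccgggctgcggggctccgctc
PGK1, chrX:78103998-78104247, plus strand: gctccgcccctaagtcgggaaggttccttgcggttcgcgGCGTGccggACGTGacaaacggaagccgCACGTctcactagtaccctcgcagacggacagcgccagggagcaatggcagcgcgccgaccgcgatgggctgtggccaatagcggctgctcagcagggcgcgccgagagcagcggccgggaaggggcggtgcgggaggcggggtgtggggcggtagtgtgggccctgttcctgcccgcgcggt
P4HA1, chr10:73096867-73097116, minus strand: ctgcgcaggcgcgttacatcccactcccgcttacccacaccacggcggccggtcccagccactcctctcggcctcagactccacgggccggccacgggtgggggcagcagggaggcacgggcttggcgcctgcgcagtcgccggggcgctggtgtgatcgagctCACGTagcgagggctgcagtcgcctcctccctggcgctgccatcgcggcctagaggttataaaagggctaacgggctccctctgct
LDHA held CACGTG at 184 and at 86 bases before its start by the plus-strand match, and BNIP3 held 6 matches between 143 and 104 bases before its start. P4HA1 held 1 match, 86 bases before the start. A match is a run of letters, and binding was not measured.

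Before the results, 3 arrays stood apart from the other 53: the first array of HEYC2, the second of OV56 and the first of OVCA420. The standard deviation over genes on these arrays was 1.57 to 1.68, against 1.91 to 2.09 on the others. They correlated at 0.615 to 0.806 with their own duplicates and at 0.897 to 0.936 with each other, whereas duplicates of the other lines correlated at 0.980 to 0.997. The first array of HEY and the second of HEYC2 correlated at 0.984, inside that range of duplicates. HEY and HEYC2 were counted as 2 lines and merged only in alternative runs, so their values may not be independent. On all 3 arrays 17 of 32 members read lower than on the duplicate and 6 read higher. Such counts were not made over all genes, so they cannot be read as particular to the members. HK1, LDHA, LDHB, PDK1, BNIP3, P4HA1 and HIF1A read lower by more than 1 log2 unit on each of them, with a mean difference of -3.05 for HIF1A and -2.86 for LDHB. PFKL read higher on each, by 1.13 on average. A pair of values for 1 line gives its first and second array. Of 8 epithelial markers, KRT8 and KRT18 were at least 9.01 and 9.18 in every line, whereas the lowest line had 4.57 for EPCAM, 5.94 for KRT7, 6.43 for KRT19, 6.29 for PAX8, 4.99 for MUC16 and 3.88 for CDH1. Of 5 leukocyte markers, PTPRC, LYZ and CD3E were at most 3.93, 4.97 and 5.42 in any line, CD14 reached 7.90 in CAOV3 and CD68 reached 10.73 in TYKNU. The 8 fibroblast markers had highest levels from 7.34 (FAP, in TOV112D) to 10.68 (THY1, in OV17R). Their medians ran from 2.96 (LUM) and 3.41 (DCN) to 7.435 (COL1A1). COL1A1 was at least 6.85 in every line and lay above the array median in all 28. The part of any marker in the members' levels was not tested.

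The members varied widely between the lines. Of 32 members, 31 differed between lines (moderated F over 28 lines, adjusted p under 0.05), where 65.7% of all 18377 genes did so, and ANKRD37, an ankyrin-repeat target of hypoxia, was the exception (adjusted p = 0.227). The SD over line means had a median of 0.855 in the members and 0.418 in all genes, and 25 of 32 members lay above 0.418. The members' median level was 8.70, and that of all genes 6.75. The range of levels was narrow in GAPDH (SD 0.193), ANKRD37 (0.204) and ALDOA (0.240) and broad in SLC2A3 (1.76), BNIP3 (1.57) and CA12 (1.52).

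**Figure D1:**
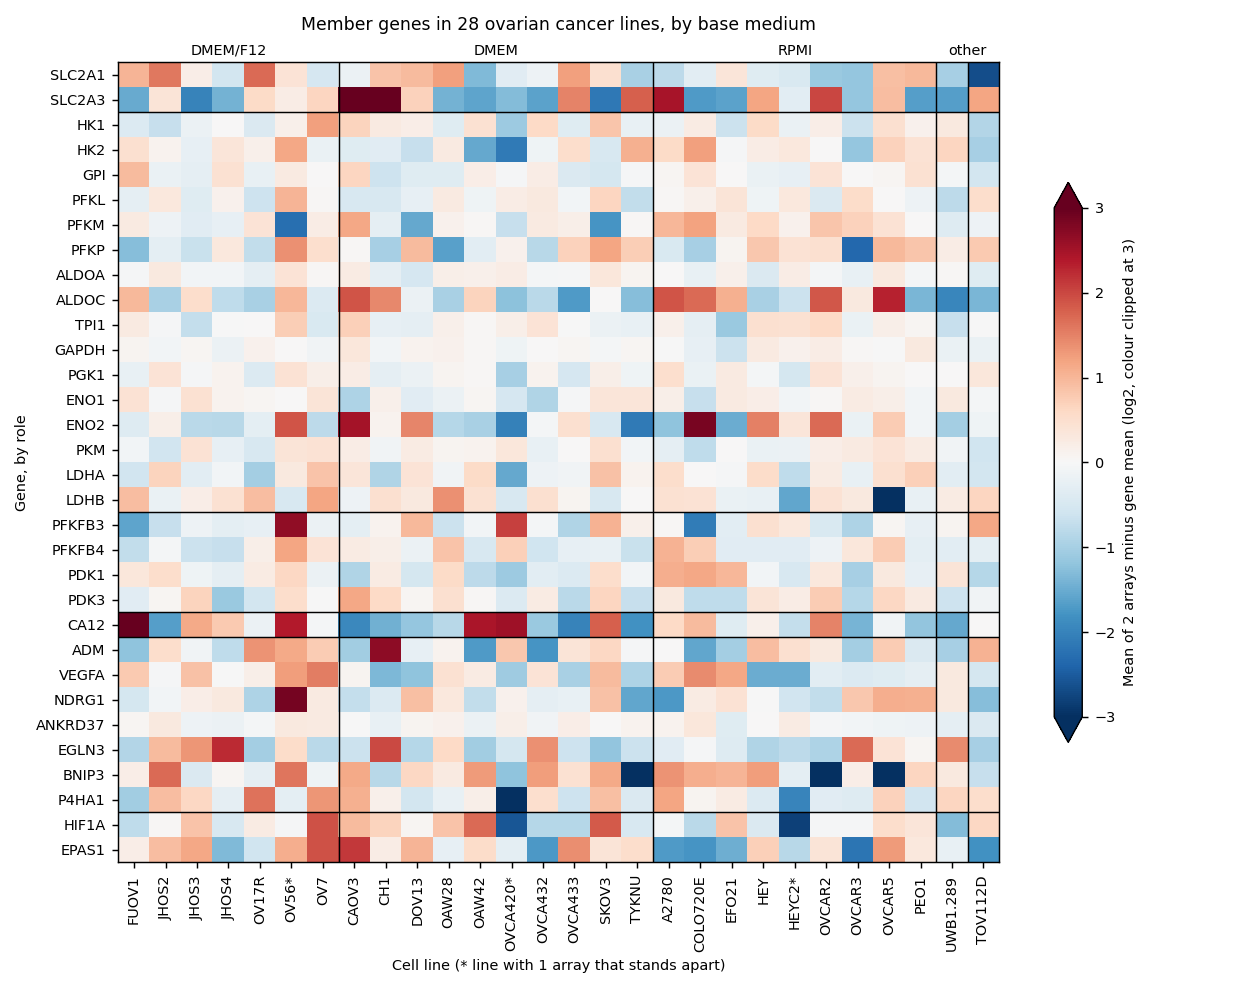
Mean of 2 arrays for each of 32 members (rows, grouped by role) in each of 28 lines (columns, grouped by base medium), as the log2 difference from the gene's mean over lines, with red above and blue below. SLC2A3 in CAOV3 and CH1 and CA12 in FUOV1 are deep red, and LDHB in OVCAR5 and BNIP3 in TYKNU, OVCAR2 and OVCAR5 are deep blue, while the row of GAPDH is nearly white.

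Among the glucose carriers, SLC2A3, the high-affinity transporter GLUT3, ranged from 5.36 in SKOV3 to 11.33 in CAOV3, a 62.7-fold span. CAOV3 read 11.47 and 11.20 and CH1 read 11.24 and 11.17, and the next line lay 1.23 log2 units lower. SLC2A1, the widely expressed transporter GLUT1, was highest in OV17R (12.63) and JHOS2 (12.52), and TOV112D (8.28) lay 1.34 units under every other line. The levels of these 2 carriers had a rho of -0.090 over the lines.

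Of the 16 measured glycolytic enzymes, GAPDH, ALDOA, PGK1, PKM, ENO1 and GPI varied less than the median gene. GAPDH spanned 0.977 log2 units, with EFO21 (13.24) below the rest, and PGK1, the first enzyme to return ATP, was lowest in OVCA420 (10.37 and 10.99) and read 12.18 in A2780 and 12.61 and 11.62 in OV56. TPI1 was also lowest in EFO21 (8.22). GPI was highest in FUOV1 (12.45) and lowest in CH1 (10.89), and PKM was highest in SKOV3 (12.90) and lowest in COLO720E (11.66). HK1, the constitutive hexokinase, was highest in OV7 (9.80) and lowest in OVCA420 (6.91 and 8.06), or in TOV112D (7.69) without the 3 arrays, and PFKL, the liver-type phosphofructokinase, was highest in OV56 (9.64 and 10.42) and lowest in UWB1.289 (8.21). ALDOC, the brain-type aldolase, ran from 5.25 in UWB1.289 to 9.53 in OVCAR5 (SD 1.28), whereas ALDOA, the muscle-type aldolase found in most cells, ran from 9.10 in DOV13 to 10.02 in OV56 (9.84 and 10.21), or to 9.96 in SKOV3 without the 3 arrays, with an SD of 0.240. ENO2, the neuronal enolase, was highest in COLO720E (10.70), CAOV3 (10.36) and OV56 (9.79 and 9.68) and lowest in TYKNU (5.75). ENO1, the common enolase, was lowest in CAOV3 (12.56) and OVCA432 (12.58). The orders of ENO1 and ENO2 over the lines were partly opposed (rho = -0.46), and less so without the 3 arrays (-0.28).

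LDHB, the lactate dehydrogenase subunit that favours pyruvate formation, held the widest range of all members, from 6.55 in OVCAR5 to 13.28 in OAW28, a 106-fold span. OVCAR5 read 6.83 and 6.28 on its arrays. Every other line mean was at least 10.36, and that lowest value belonged to HEYC2, whose arrays read 8.50 and 12.22. LDHA, the subunit that favours lactate, read 12.75 and 12.84 in OVCAR5, against a median of 12.32 over the 28 lines, so the LDHB value of OVCAR5 stood beside an LDHA value above the middle. The lowest mean of LDHA was in OVCA420, with 9.75 and 11.82. Without the 3 arrays the lowest was 11.29 in OV17R, and the highest was 13.46 in OV56, whose second array read 11.77.

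PFKM, the muscle-type phosphofructokinase, was lowest in OV56 (6.52, or 6.19 without the array that stood apart), SKOV3 (7.03) and DOV13, and PFKP, the platelet type, was highest in OV56 (10.96 and 10.07) and SKOV3 (10.34). Their order over the lines was partly opposed (rho = -0.35, and -0.57 after centring each base medium). HK2, the inducible hexokinase, was lowest in OVCA420 (6.85 and 6.35) and highest in COLO720E (9.96) and OV56 (10.06 and 9.70).

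The flux regulators act on the allosteric activator of phosphofructokinase or on pyruvate dehydrogenase. PFKFB3, which makes that activator, was highest in OV56, with 10.91 on the first array and 10.35 on the second, then in OVCA420 (9.69 and 10.39), and lowest in COLO720E (5.89). PFKFB4 was lowest in FUOV1 (6.19) and highest in OV56 (8.03 and 8.21). PDK1 had its highest means in COLO720E (9.22) and A2780 (9.14), while OV56 read 9.57 and 7.74, and PDK3 in CAOV3 (7.76). CA12, a membrane carbonic anhydrase that acts in pH balance, was high in FUOV1 (10.64), OVCA420 (9.02 and 11.02), OAW42 (9.94) and OV56 (10.87 and 8.83), and lowest in OVCA433 (5.47).

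Among the hypoxia-response genes, BNIP3 lay in separate sets of lines. TYKNU read 4.63 and 4.75, OVCAR2 4.72 and 4.75, and OVCAR5 4.99 and 5.04. The other 25 lines had means from 7.48 to 10.39, a gap of 2.47 log2 units between the sets. The highest mean was in JHOS2, and OV56 read 11.44 and 9.14. TYKNU was also the line with the highest levels of 3 of 5 endothelial markers, PECAM1 (9.79), CDH5 (9.28) and KDR (8.06). VWF was at most 5.71 in any line, and CLDN5 was highest in OVCA420 (7.50). OVCAR2, also very low in BNIP3, had the lowest KDR of all lines (4.15). The part of these markers in the BNIP3 level of TYKNU was not tested.

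ADM was highest in CH1 (11.20), 1.34 units over OV17R (9.85), and lowest in OVCA432 (6.75). NDRG1, a stress-responsive gene, was highest in OV56, with 12.02 and 10.75 on its arrays, against at most 9.60 in any other line. EGLN3, an oxygen-sensing prolyl hydroxylase, was highest in JHOS4 (9.73), CH1 (9.49) and OVCAR3 (9.21), with a median of 7.04. VEGFA was lowest in HEYC2 (6.29 and 6.41) and HEY (6.36) and highest in OV7 (9.40) and OV56 (9.77 and 8.45). P4HA1, a collagen prolyl hydroxylase, was lowest in OVCA420, with 4.21 and 6.84, and in HEYC2, with 5.51 and 8.63, and highest in OV17R (10.70). ANKRD37 spanned 0.762 units, and its duplicates correlated at 0.174.

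HIF1A was highest in OV7 (12.67) and SKOV3 (12.58). Its lowest means were in HEYC2, from arrays of 6.60 and 9.32, and in OVCA420, from 6.10 and 10.27, so both means rest in part on arrays that stood apart. The SD over lines was 1.12 with all arrays and 0.904 without those 3. EPAS1, the HIF-2α subunit, was highest in CAOV3 (10.52) and OV7 (10.33) and lowest in OVCAR3 (6.22).

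**Figure D2:**
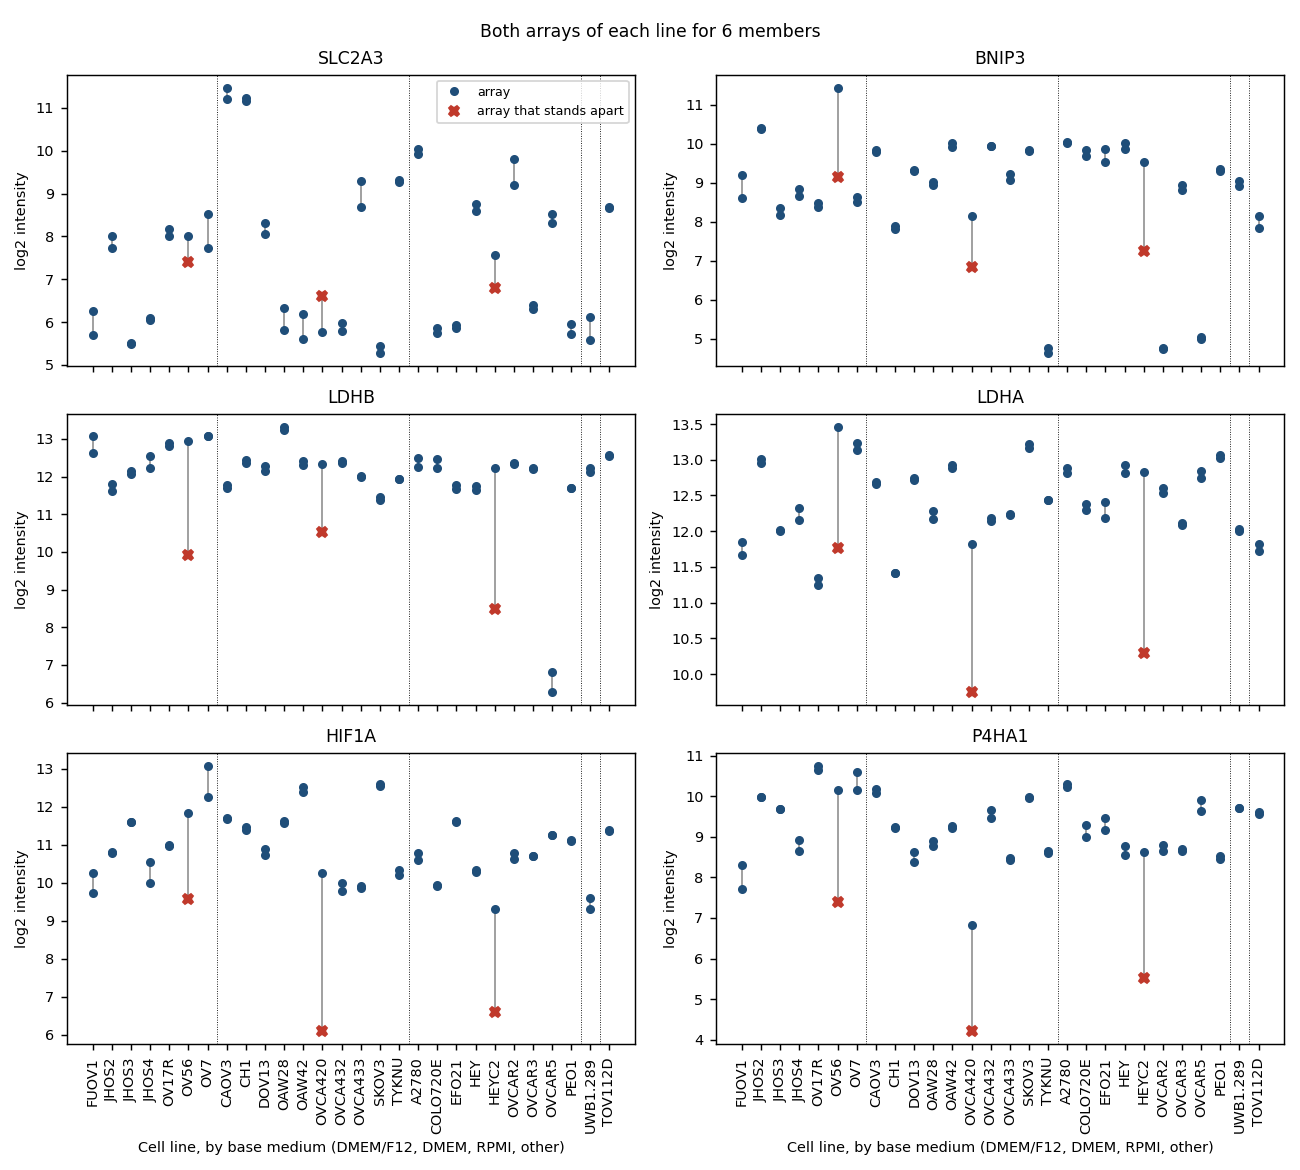
Log2 intensity of SLC2A3, BNIP3, LDHB, LDHA, HIF1A and P4HA1 on both arrays of each of the 28 lines, joined by a grey line, with a red cross for the 3 arrays that stood apart. Most duplicates nearly coincide, including the low BNIP3 of TYKNU (4.63 and 4.75) and the low LDHB of OVCAR5 (6.83 and 6.28), while the crosses lie far under their duplicates in LDHA, LDHB, HIF1A and P4HA1.

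To ask whether these genes varied together, Spearman's rho was taken over the 28 lines for all 496 pairs of members. The points of each rho share the same 28 lines and arrays, so they are given as descriptions. The median rho was 0.085 in member pairs and 0.010 in all 168847876 pairs of genes, and 330 of the 496 member pairs were above 0. A rho above 0.5 was found in 13 member pairs (2.62%), against 3.28% of all pairs, and a rho below -0.5 in 5 member pairs, against 1.84% of all pairs. At this threshold the members' share lay under that of genes in general.

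This reading moved with the 3 arrays. Without them, 18 member pairs (3.63%) were above 0.5, against 1.03% of all pairs, and none was below -0.5. With the lines HEYC2, OV56 and OVCA420 left out whole, 8 pairs (1.61%) were above 0.5, against 1.37% of all pairs, with medians of 0.051 in members and 0.008 in all pairs. Between duplicate arrays, where the line is the same, the members' differences correlated with a median of 0.206 over 28 lines and 0.074 over the 25 lines without such an array, against 0.059 and 0.00 in all genes.

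**Figure D3:**
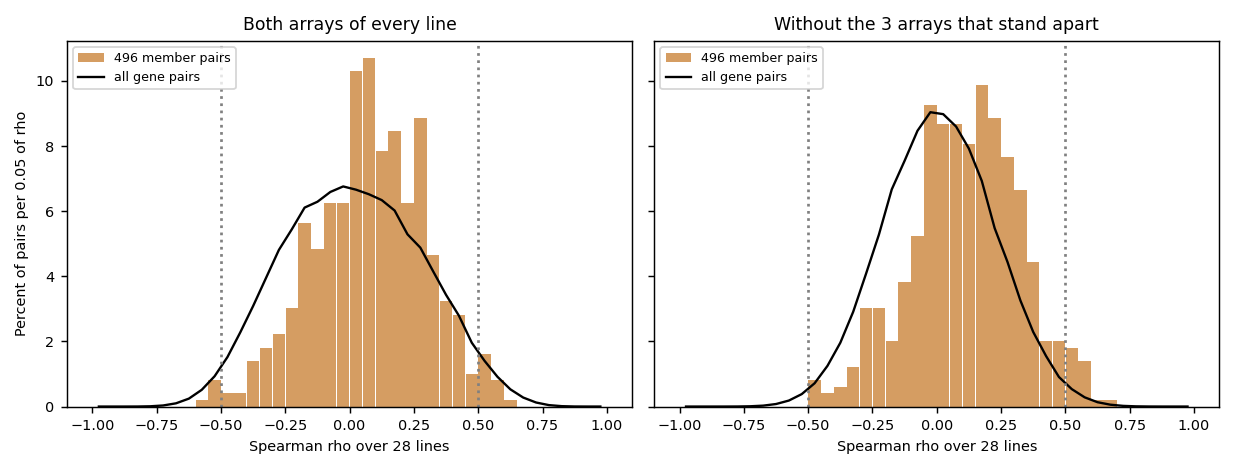
Distribution of Spearman's rho over 28 lines in 496 member pairs (bars) and in all gene pairs (line), in percent of pairs per 0.05 of rho, with both arrays of every line (left) and without the 3 arrays that stood apart (right). Dotted lines mark rho of 0.5 and -0.5. The bars lie to the right of the line in both panels (medians 0.085 against 0.010, and 0.118 against 0.008), and the line is narrower on the right.

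The highest rho among members was between HK2 and PDK1, which send glucose into glycolysis and hold pyruvate back from the mitochondria (rho = 0.61, Pearson r = 0.67). It lay between 0.56 and 0.67 when any 1 line was left out, was 0.58 without the 3 arrays, and was 0.46 in DMEM/F12, 0.58 in DMEM and 0.48 in RPMI lines. PFKP and PFKFB3, the enzyme and the maker of its activator, followed (rho = 0.58, r = 0.59), with 0.61, 0.52 and 0.62 in the same media. PDK1 also ran with VEGFA (rho = 0.56), though not in DMEM/F12 lines (rho = -0.036).

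TPI1 and GAPDH, neighbouring steps of the pathway, reached 0.53 with all arrays and 0.67 without the 3. LDHA ran with HK1 (rho = 0.53, and 0.55 without them), BNIP3 (0.53, and 0.57) and PGK1 (0.51, and 0.51). The Pearson r of LDHA with BNIP3 was 0.22. The 3 lines with very low BNIP3 had LDHA levels from 12.43 to 12.79. PGK1 with P4HA1 had a rho of 0.52, and 0.50 without the 3 arrays, and r = 0.64, which was 0.27 once the 2 lines farthest from the median of PGK1 were left out.

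In the other direction, PFKFB3 ran against PFKM (rho = -0.55, r = -0.72, and -0.76 by rank after centring each medium), GPI, the isomerase of the second step, ran against ADM (rho = -0.54), and PFKP ran against LDHB (rho = -0.57, and -0.40 without the 3 arrays). SLC2A3 ran against VEGFA (rho = -0.51, and -0.46 without them). Without the 3 arrays no member pair was below -0.5, so PFKFB3 with PFKM and GPI with ADM were weaker there too. OV56, a line with 1 of those arrays, had the lowest mean of PFKM (6.52) and the highest of PFKFB3 (10.63).

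Within roles, 3 of 120 pairs of enzymes (2.5%) and 1 of 21 pairs of hypoxia-response genes (4.76%) were above 0.5, against 3.28% of all pairs. Their medians were 0.091 and 0.059. Without the 3 arrays, 6 of 120 (5.0%) and 1 of 21 (4.76%) were above 0.5, against 1.03% of all pairs, with medians of 0.167 and 0.126. Counts by role were not taken with the 3 lines left out whole. HIF1A ran most closely with P4HA1 over all arrays (rho = 0.56, and 0.52 without the 3 arrays) and with PKM without them (0.54, against 0.43 over all arrays). EPAS1 ran most closely with PKM, the last kinase of the pathway (rho = 0.56, and 0.58). The median rho with the other 31 members was 0.111 for HIF1A and 0.114 for EPAS1, against -0.074 and -0.029 with all genes. HIF1A and HK2 had a rho of -0.44, of -0.425 without the 3 arrays and of -0.335 after centring each medium, and a Pearson r of -0.14.

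**Figure D4:**
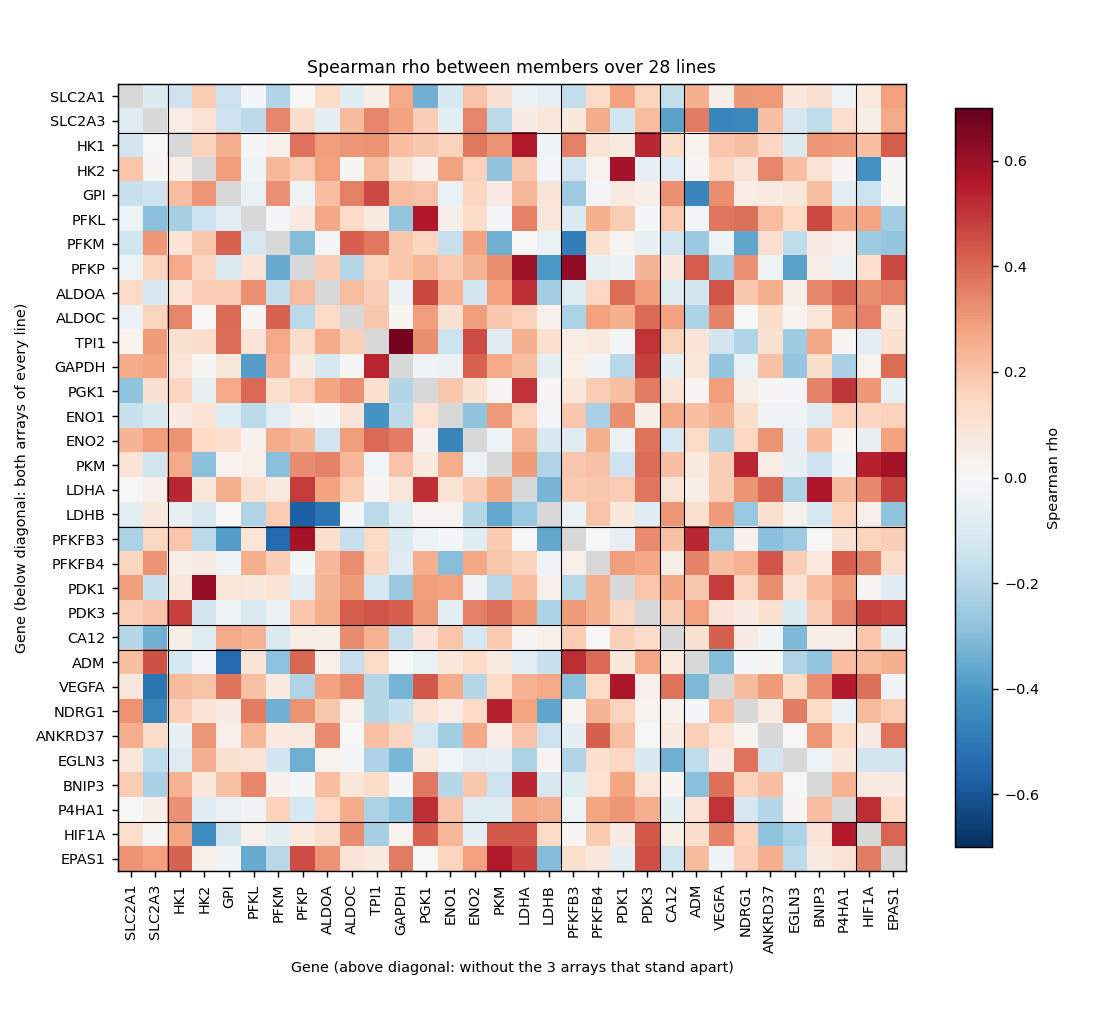
Spearman's rho between the 32 members, grouped by role, with both arrays of every line below the diagonal and without the 3 arrays that stood apart above it, red above 0 and blue below. Most cells are pale. Dark red cells mark HK2 with PDK1 (0.61), PFKP with PFKFB3 (0.58) and PKM with EPAS1 (0.56), and a dark blue cell marks PFKFB3 with PFKM (-0.55).

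Members were also averaged after centring, as a hypoxia level over 9 genes (ADM, VEGFA, NDRG1, ANKRD37, EGLN3, BNIP3, P4HA1, PDK1 and PFKFB4) and an enzyme level over 16. The hypoxia level was highest in OV56 (1.59 and 0.461 on its arrays), JHOS2 (0.522) and SKOV3 (0.406), and lowest in TYKNU (-0.916) and OVCAR2 (-0.650). The enzyme level was highest in OVCAR2 (0.447), CAOV3 (0.442) and OV56 (0.660 and 0.141 on its arrays) and lowest in OVCA420 (-0.704 and -0.519). Without the 3 arrays OV56 was first (0.633), then OVCAR2 (0.420) and CAOV3 (0.416). OVCAR2 was thus near opposite ends of the 2 levels. Its low hypoxia level rests largely on BNIP3, which lay at -3.96 from its mean over lines in OVCAR2 and at -4.0 in TYKNU. Levels of these lines without BNIP3 are not given here. Over the lines the levels had a rho of 0.188 (r = 0.294, and 0.121 without the 2 lines farthest from the median hypoxia level), and of -0.007 without the 3 lines. HIF1A had a rho of 0.33 with the hypoxia level, and EPAS1 a rho of 0.003.

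Outside the members, the genes whose rank order was most like the hypoxia level over 28 lines were FIGN (rho = 0.66), GPC4 (0.66), ZNF439 (0.64), VHL (0.63), TSC22D3, ZNF625-ZNF20, ZNF699, JARID2, PGAP2 and PNRC1 (0.60). VHL is the ubiquitin ligase subunit that marks hydroxylated HIF1A for breakdown. Those most like the enzyme level were TBL1X (0.71), PAQR5 (0.68), DNER (0.66), ATG7 (0.65) and HERC2 (0.65). The 22 other hypoxia targets had a median rho of 0.304 with the hypoxia level, from -0.132 (PPFIA4) to 0.518 (DDIT4), where all 18345 genes outside the members had a median of -0.024. Of these targets 20 were above 0, against 8365 of the 18345 genes, and 1 was above 0.5, against 0.387% of those genes. STC2 (0.48) and ERO1A (0.46) lay near the top and HILPDA at -0.04. Of the 10 other glycolysis genes none passed 0.5 in size with either level. PDHA1, a subunit of pyruvate dehydrogenase, had a rho of 0.60 with the enzyme level, the only 1 of 16 genes of glucose and lactate flux above 0.5, and PGD, of the pentose phosphate pathway, had a rho of -0.51 with it.

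No member passed the test between base media, and the levels of every member that is given here overlapped between them. The test was made over DMEM/F12, DMEM and RPMI lines (limma's moderated F on line means, 26 lines, adjusted p under 0.05), and 0.00% of all genes passed it. At an unadjusted p under 0.05, 1 of 32 members passed, against 350 of 18377 genes. In simulated data, the DMEM minus RPMI contrast recovered 12% of changes of 0.5 log2 units, 68% of changes of 1 and 98% of changes of 2. The changed genes were drawn at random from all genes, whose median SD over lines was 0.418, against 0.855 in the members. These shares therefore do not give the recovery for the members, which was not simulated.

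PFKM was that member. It ran from 6.52 to 9.19 with a median of 8.63 in DMEM/F12 lines, from 7.03 to 9.94 with a median of 8.82 in DMEM lines, and from 8.80 to 9.99 with a median of 9.38 in RPMI lines, and the ranges overlapped. The difference was -0.82 ± 0.34 for DMEM minus RPMI and -0.88 ± 0.37 for DMEM/F12 minus RPMI (log2 ± SE, adjusted p = 1.0 for each).

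VEGFA ran from 7.82 to 9.40 (median 8.64) in DMEM/F12 lines, from 6.51 to 8.81 (median 7.43) in DMEM lines and from 6.35 to 9.26 (median 7.54) in RPMI lines. DMEM/F12 minus DMEM was 0.99 ± 0.41 (adjusted p = 1.0). All 7 hypoxia-response genes had a positive difference between DMEM/F12 and DMEM lines, with a median of 0.47 that was 0.18 without OV56. All 7 were also positive between DMEM/F12 and RPMI lines, with a median of 0.47 that was 0.37 without JHOS2. With any 1 line left out, 6 or 7 were positive in each contrast. The share of positive differences over all genes is not given here. Both contrasts share the DMEM/F12 lines, no gene of the group passed the test, and the median over all genes was 0.00 and -0.02. For the 16 enzymes the medians were 0.03 and -0.03.

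The broadly varying members overlapped between media throughout. SLC2A3 had medians of 7.72 in DMEM/F12, 7.19 in DMEM and 7.18 in RPMI lines, with CAOV3 and CH1 the highest of the DMEM lines. EPAS1 had medians of 9.33 in DMEM/F12, 8.88 in DMEM and 7.58 in RPMI lines, and DMEM minus RPMI was 0.99 ± 0.50 (adjusted p = 1.0). LDHB had medians of 12.38, 12.11 and 11.71 in the same order, and HIF1A 10.80, 11.12 and 10.71.

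Lines with insulin were compared with lines without it, with base medium in the fit (8 lines against 18). No member passed the test, where 0.00% of all genes did, and 1 member passed an unadjusted p under 0.05, against 439 genes. PFKFB4 ran from 6.45 to 8.12 (median 7.31) with insulin and from 6.19 to 7.97 (median 6.67) without it, a difference of 0.54 ± 0.23 (adjusted p = 1.0). HIF1A ran from 10.71 to 12.67 (median 11.13) with insulin and from 7.96 to 12.58 (median 10.50) without it (0.92 ± 0.45, adjusted p = 1.0), and the lowest lines without insulin were HEYC2 and OVCA420. The difference in BNIP3 was -0.96 ± 0.68 (adjusted p = 1.0), with OVCAR2 and OVCAR5 among the lines with insulin and TYKNU among those without. In DMEM/F12 lines insulin came with hydrocortisone and less serum, and these cannot be told apart there.

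**Figure D5:**
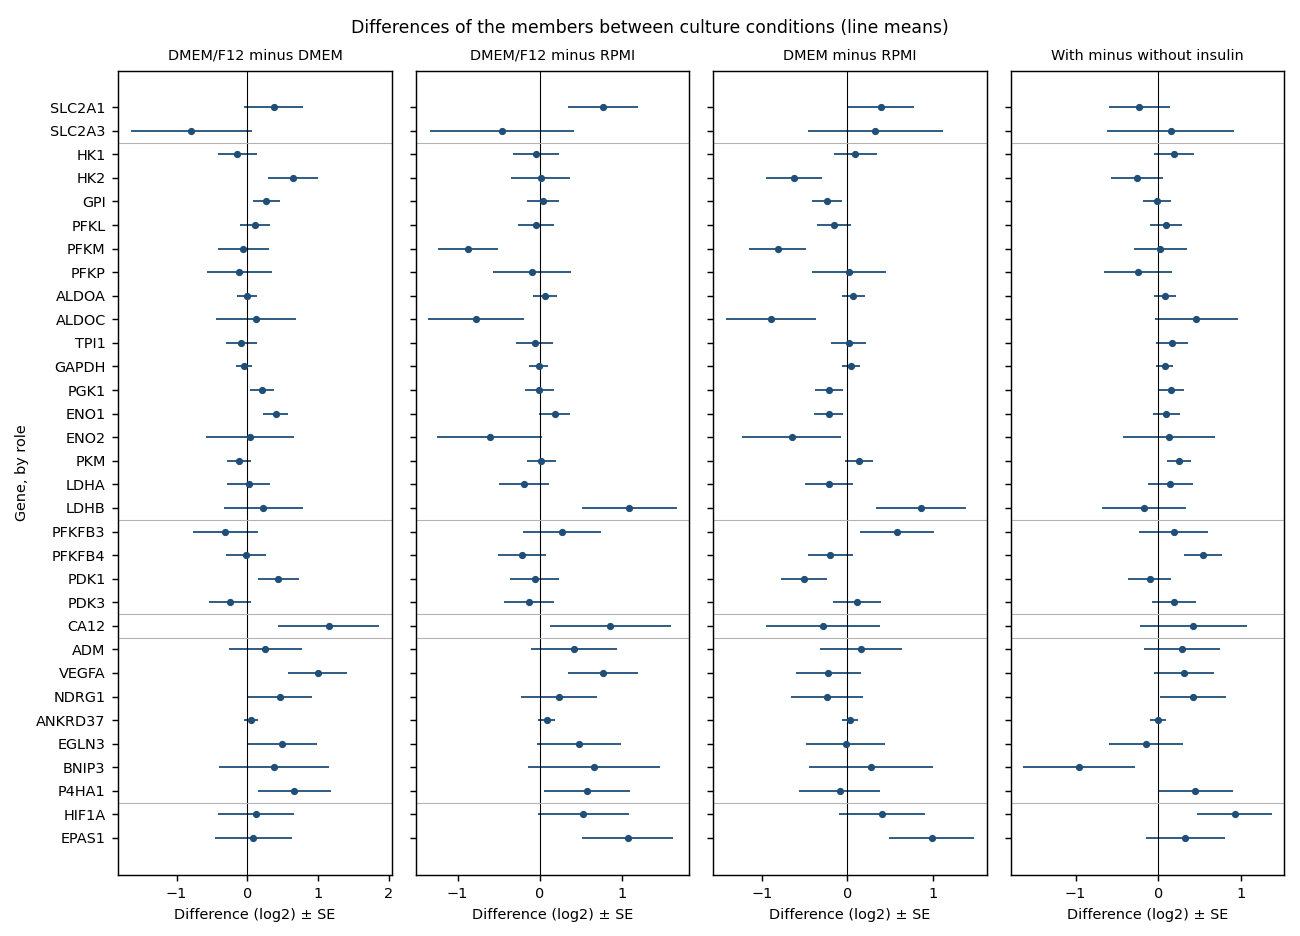
Difference in log2 intensity (points) with its standard error (bars) for each of 32 members, from line means, for DMEM/F12 minus DMEM, DMEM/F12 minus RPMI, DMEM minus RPMI and lines with minus lines without insulin. The bars of most members cross 0, the 7 hypoxia-response genes lie right of 0 in both panels with DMEM/F12, and no difference had an adjusted p under 0.05.

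The lines were last ordered by an epithelial-mesenchymal transition (EMT) score, higher in lines whose mesenchymal signature genes outrank the epithelial ones, which ran from -0.819 in PEO1 to 0.720 in TOV112D. No member passed the test of a slope along it, where 1.10% of all genes did, and none passed a rho of 0.5 in size, where 3.10% did. At an unadjusted p under 0.05, 3 of 32 members passed, against 1796 genes. These were SLC2A3 (1.40 ± 0.67 log2 per unit of score, adjusted p = 0.502), ADM (0.87 ± 0.41, adjusted p = 0.478) and NDRG1 (-0.83 ± 0.36, adjusted p = 0.405). EGLN3 had the largest rho in size (-0.43), and PFKFB3 the highest (0.36). EPAS1 and PFKM belong to the signature behind the score.

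Of 67 measured genes on 6 lists of related pathways (other hypoxia targets, oxygen sensing, other glycolysis genes, glucose and lactate flux, pentose phosphate and gluconeogenesis), none passed the test between media, with insulin or along the score. Between lines, 21 of 22 other hypoxia targets, 7 of 7 genes of oxygen sensing, 8 of 10 other glycolysis genes, 14 of 16 genes of glucose and lactate flux, 4 of 6 pentose phosphate genes and 4 of 6 gluconeogenesis genes differed, where 65.7% of all genes did so. FBP1, the enzyme that reverses the phosphofructokinase step, had a rho of -0.54 with the score.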

How the data were processed

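Gene expression was read from 56 arrays of 28 lines. The authors made the deposited log2 intensities with RMA in affy 1.42.3, tools listed in the submitters' processing notes. Which arrays were normalized together is not given in the sources used here. Arrays have no read depth, so the 2 arrays per line limit the precision.

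Of 28869 probe sets, 19310 carry 1 gene and were used, giving 18377 genes, and the probe set of highest mean was taken. Probe sets of GAPDH, PGK1, LDHA and similar enzymes may also bind processed pseudogenes, which was not tested. The arrays of a line were averaged.

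Lines, base media, insulin and the slope on the EMT score were tested with limma 3.58.1 (R 4.3.3, statmod 1.5.0, trend and robust settings) over all genes, with Benjamini-Hochberg adjustment at 0.05. The score is a signed Kolmogorov-Smirnov statistic rebuilt from 184 epithelial and 200 mesenchymal genes. Correlations and figures were made in Python 3.11.15 with pandas 2.3.3, numpy 2.4.6 and matplotlib 3.10.9. The line and medium fits were tested on simulated data. Alternatives were quantile normalization, the mean over probe sets, a filter on low values, no trend or robust setting, a replicate block, either array alone, leaving out lines or the 3 arrays, other forms of the score, and Pearson's r. Leaving out the 3 lines whole, and only members with a high SD, were added after seeing the data.

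The members and lists were chosen with earlier results of these data known. Named with values were all members whose spread was among the 12 largest or that passed a test, their isoform partners, the 10 and 5 genes most like the levels, and markers. Other members, and pathway genes that passed no test, were named after their values were seen.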

Additional observations from a re-analysis of the deposited data

Results flagged for a closer look

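Within a base medium, 1 line lay far from the others, by its gap to the nearest line over the whole range, in 12 of 96 sets of lines (32 members in 3 media). The nominal rate of this rule is about 5% of sets. The sets share lines, and the share over all genes was not taken, so no excess over chance is shown. In DMEM/F12 lines, OV56 was high in PFKFB3 (10.63, or 10.91 without the array that stood apart, others 6.40 to 7.84), NDRG1 (11.39, or 12.02, others 7.57 to 8.80) and ENO2 (9.73, or 9.79, others 7.01 to 8.04), and low in PFKM (6.52, or 6.19, others 8.46 to 9.19). In DMEM lines, BNIP3 was low in TYKNU (4.69, others 7.48 to 9.97), LDHB was high in OAW28 (13.28, others 11.42 to 12.40) and P4HA1 was low in OVCA420 (5.52, or 6.84 without the array that stood apart, others 8.44 to 10.13). In RPMI lines, LDHB was low in OVCAR5 (6.55, others 10.36 to 12.38), EGLN3 was high in OVCAR3 (9.21, others 6.57 to 7.90), TPI1 was low in EFO21 (8.22, others 9.07 to 9.93) and ENO1 was low in COLO720E (12.80, others 13.41 to 13.75). HIF1A was low in HEYC2 (7.96, others 9.93 to 11.62), and was 9.32 without the array that stood apart.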

How the results depend on the processing

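The counts of members called between lines (31), between media (0), with insulin (0) and along the score (0) were the same or within 1.5 times under every alternative run, and with a replicate block 31 members differed between lines. The rho of the hypoxia level with the enzyme level was 0.188, and -0.00692 without the 3 lines; the jackknife SE was 0.22, and the cause was not tested. The median rho of member pairs kept its sign in all alternatives. The share of pairs above 0.5 stayed within its jackknife SE of 2.1 percentage points, but its order against all pairs depended on the 3 arrays. Among genes with an SD above the median of all genes, 2.67% of member pairs passed, against 2.39% of all pairs, and 3.33% against 1.28% without the 3 arrays. Depth cannot be judged from arrays, and differences under 1 log2 unit between media were often not recovered in simulated data.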
